A study of Mus musculus with 24 samples.

Results

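Ifitm1, Ifitm2 and Ifitm3 are 3 of the 27297 gene rows in a table of single mouse haematopoietic stem cells (HSCs), and they were chosen by name. The choice rested on values from these same cells: Ifitm1 was taken as the strongest gene outside the globins among those lower in cells rich in cell-cycle transcripts. Levels by cell-cycle set are therefore given as a description with no test. That the Ifitm1 level differs between sort plates was also known, so levels by plate are descriptions too. Several of the sets compared by fluorescence below also differ in cell-cycle transcripts. Their tests of Ifitm1 are therefore not independent of this choice. The table lists 3 further Ifitm rows, Ifitm5, Ifitm6 and Ifitm7.

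HSCs of the mouse strain -60/DR5-TA-RA-CFP, which carries a cyan fluorescent protein (CFP) reporter of retinoic acid signalling, were sorted by surface markers as LSK (Kit and Sca-1 positive cells without lineage markers), CD150+ and CD48- cells. All cells carry the reporter, and no age or treatment is given in the labels. Each cell was index sorted into a well of a 384-well plate, so that its fluorescence values are on record beside its count of unique molecular identifiers (UMIs, 1 per captured mRNA molecule). The record holds 1430 cells on sort plates 2, 3, 4 and 5, with 356, 345, 361 and 368 cells, and no well is shared between plates.

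IFITM proteins are small membrane proteins that hinder the entry of enveloped viruses into cells, and interferons induce them in many tissues. Stem cells of several kinds also express IFITM genes without an interferon stimulus. Adult HSCs are mostly quiescent, and type I interferon is known to drive quiescent HSCs into the cell cycle. The comparisons below bear on how the genes differ between HSCs of unequal reporter brightness and unequal surface fluorescence, within a study whose title names cell-cycle status.

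In RefSeq (GRCm38.p6), Ifitm2 lies at chr7:140954837-140959686, Ifitm1 at chr7:140967429-140969827 and Ifitm3 at chr7:141009590-141010744, a stretch of 55.9 kb. The start regions are shown because interferon acts on such genes through short promoter motifs. The RefSeq promoter table gives 1 transcript start per gene, which lies 647 bases inside the span of Ifitm1, 3725 bases inside that of Ifitm2 and at the edge of that of Ifitm3, so other starts of Ifitm1 and Ifitm2 are not shown. Each line runs from 120 bases before to 30 bases after that transcript start, 5′ to 3′ on the gene's strand, and capitals mark matches to GAAANNGAAA, the core of the interferon-stimulated response element, searched on both strands.
Ifitm1, chr7:140967956-140968105, plus strand: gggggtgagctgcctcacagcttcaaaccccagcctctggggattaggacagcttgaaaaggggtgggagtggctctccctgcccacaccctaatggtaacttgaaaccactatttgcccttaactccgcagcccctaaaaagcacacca
Ifitm2, chr7:140955932-140956081, minus strand: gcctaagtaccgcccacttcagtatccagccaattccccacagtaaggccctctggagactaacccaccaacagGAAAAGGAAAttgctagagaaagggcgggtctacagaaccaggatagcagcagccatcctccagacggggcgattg
Ifitm3, chr7:141010715-141010864, minus strand: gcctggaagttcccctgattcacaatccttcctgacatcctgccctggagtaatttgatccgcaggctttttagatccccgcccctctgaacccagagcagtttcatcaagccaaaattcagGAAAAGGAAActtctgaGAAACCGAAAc

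The search covered a window of 300 bases per gene, of which the lines above print 150. The core motif stood once in the Ifitm2 window and in 2 places in the Ifitm3 window, while the letters were not in the Ifitm1 window. Of all 32851 promoter windows of 300 bases in the RefSeq table, 3.44% held it. The motif TTCNNNGAA, known as the gamma-activated sequence, stood in 8.30% of all windows and in the Ifitm3 window, where it overlaps the second capital run, but its letters were in neither the Ifitm1 nor the Ifitm2 window.

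All 10 genes of the HSC list (among them Procr, Mecom, Hlf and Mllt3) were detected, at a summed level of 1954 to 2209 CPM (counts per 1000000 UMIs of the cells) across plates. Transcripts of the gate's own markers were unequal. Kit was at 318 CPM (31.5% of cells with a UMI), Ly6a (Sca-1) at 42.7 (5.52%) and Slamf1 (CD150) at 19.4 (2.52%). Cd48, which the gate excludes, had 1 UMI. Only 1 of 4 B cell genes, 1 of the 3 T and NK cell genes in the table and 1 of 3 stromal genes had any UMI, and Cd3e, Cdh5, Ccr2 and Lepr were at 0. Other lists had more members detected, among them 3 of 4 monocyte and macrophage genes at a summed 402 CPM (Lyz2 alone at 328), 3 of 4 endothelial genes at 72.1 CPM and 4 of 4 neutrophil genes at 6.64 CPM. All 4 megakaryocyte genes summed to 336 CPM and all 5 erythroid genes in the table to 1501 CPM. Plate totals ran from 483734 to 563679 UMIs, and the median cell held 1265 UMIs, so that a gene at 1000 CPM is seen with about 1 molecule per cell. The labels list 8 single-cell samples, but nothing ties a well to one of them, so the 4 plates served as technical replicates of 1 pooled collection. P-values here reach no further than these plates, which may share animals. The tests over all genes also take most of their estimate of spread from other genes, not from the 4 plates of 1 gene.

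Ifitm1 was present in most HSCs of 3 plates and scarce in the fourth. It had 108 UMIs in plate 2, against 1307, 1327 and 1338 UMIs in plates 3, 4 and 5. As CPM, these counts were 223, 2395, 2570.0 and 2374. At least 1 UMI was found in 24.4% of plate 2 cells (95% exact binomial interval 20.1 to 29.2%), and in 91.9, 87.3 and 91.3% of cells in plates 3, 4 and 5. All intervals on shares and levels cover counting error only.

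Ifitm3, an IFITM protein of endosomes and the best studied antiviral member of the family, showed the same split between plates. Its level was 93.0 CPM in plate 2, and 1583, 1445 and 1478 in plates 3, 4 and 5. Of the cells, 10.1% held an Ifitm3 UMI in plate 2, against 83.2, 81.4 and 81.5% in the others. Plate 2 thus lay 10.96-fold below the mean of the other plates for Ifitm1 and 16.1-fold below it for Ifitm3, whereas plates 3 to 5 lay within 1.08-fold of each other for Ifitm1 and within 1.10-fold for Ifitm3.

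Ifitm2, whose gene neighbours both, did not share the split. It had 676, 711, 761 and 637 CPM in plates 2, 3, 4 and 5, and 55.3, 61.4, 59.6 and 55.7% of the cells held an Ifitm2 UMI. The bone gene Ifitm5 had 1 UMI in all cells and Ifitm6 had 0, which allows up to 1.42 CPM. Ifitm7, on chromosome 16, had 25 UMIs in 24 cells. How reads that match more than 1 Ifitm gene were assigned is not stated in the sources, so a part of each count could belong to a close relative.

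**Figure D1:**
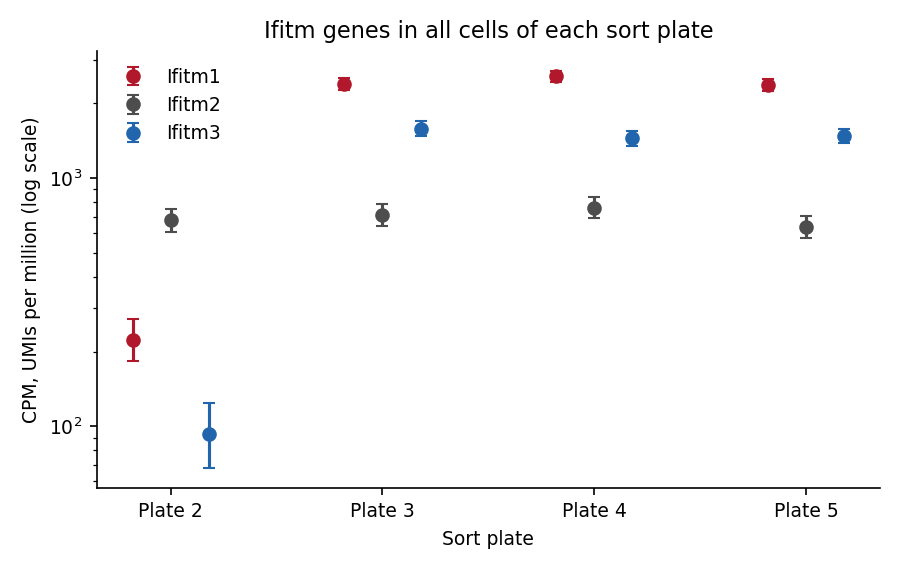
CPM (log scale) of Ifitm1, Ifitm2 and Ifitm3 in all cells of each sort plate, with 95% exact Poisson intervals as bars. Plate 2 stands at 223 for Ifitm1 and 93.0 for Ifitm3, below plates 3 to 5, while Ifitm2 stays between 637 and 761 in all 4 plates.

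The plate 2 gap was not a property of Ifitm genes alone. Among 890 genes with a mean of at least 200 CPM in plates 3 to 5, 48 (5.39%) were below 0.25 of that mean in plate 2, and 0 were more than 4-fold above it. These thresholds were set after the values were seen. Ifitm3 ranked 12 and Ifitm1 ranked 18 from the lowest ratio. The elongation factor gene Eef1a1 was at 205 CPM in plate 2, against 6185, 5115 and 4660.5 in plates 3, 4 and 5. The ribosomal protein gene Rpl32 was at 265 CPM in plate 2 and 5526, 5965 and 5529.7 in the others. Of 41 ribosomal protein rows, 8 showed such a gap, with a median ratio over all 41 of 0.955.

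Plate 2 cells were otherwise similar in depth, with a median of 1194 UMIs, against 1424, 1213 and 1254 in plates 3, 4 and 5. The summed level of 38 interferon-induced genes of a list that leaves out the Ifitm genes was 4866 CPM in plate 2 and 6432 to 6651 in the other plates, a gap that lay in Ly6e (312 CPM in plate 2, against 2325, 2285 and 2329 in plates 3, 4 and 5). Without Ly6e, the other 37 genes summed to 4554 CPM in plate 2 and 4147 to 4326 in the other plates. The 106 wells with no index record, which held 25068 UMIs in all and were otherwise unused, had 0.632 Ifitm1 UMIs per well, or 2673 CPM. Their sort plates are not on record and they are far shallower than recorded cells, so they are not set against plate 2. Whether some UMIs of recorded cells are background was not tested. The source of the plate 2 gap was not tested, and comparisons of Ifitm1 and Ifitm3 between sets are given per plate, or over plates 3 to 5 where so stated.

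From cell to cell, Ifitm1 varied more than counting alone gives. With the UMIs of every cell that had 1000 or more drawn down at random to 1000 (thinning), the variance of Ifitm1 UMIs was 1.70, 2.71 and 2.10 times the mean in plates 3, 4 and 5, where a Poisson count gives a ratio near 1. No Ifitm1 UMI was left in 14.9, 22.2 and 23.4% of these cells, against the 7.92, 7.27 and 8.96% that a Poisson count of the same mean gives. The highest count before thinning was 22 Ifitm1 UMIs in 1 cell.

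Ifitm2 lay at the counting limit in this respect, with ratios of 0.960, 0.955 and 1.09 in plates 3, 4 and 5. Ifitm3 lay between, at 1.33, 1.08 and 1.51. Across cells, Pearson's r of thinned Ifitm1 and Ifitm3 UMIs was 0.24, 0.16 and 0.36 in plates 3, 4 and 5 (276, 230 and 269 cells), and that of Ifitm1 and Ifitm2 was 0.09, 0.06 and -0.02. Counts this sparse allow only low correlations, and these are descriptions over cells that share a plate and a depth.

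Cells rich in S phase and G2/M transcripts held less Ifitm1. Only the 1025 cells with at least 1000 UMIs were ranked, after thinning to 1000. The 20% per plate with the most thinned UMIs from lists of S phase and G2/M genes (205 cells) formed the high set. The 50% with the fewest (512 cells) formed the low set. Shallower cells are in neither set, and the levels and counts per cell below are from unthinned UMIs. Ifitm1 was at 140, 1324, 1000.5 and 884 CPM in the high set of plates 2, 3, 4 and 5, against 272, 2941, 3241 and 3105 in the low set. The high set was below the low set in each plate, and by 2.93-fold over plates 3 to 5. The gap also stood in molecules per cell, at 3.24, 2.37 and 2.33 Ifitm1 UMIs per cell in the high set of plates 3, 4 and 5 and 4.54, 5.11 and 4.56 in the low set.

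In plates 3 to 5, Ifitm3 and Ifitm2 differed less between these sets than Ifitm1 did. In plate 2 the log2 ratio of high over low was lower for Ifitm3 than for Ifitm1 by 1.02. That value rests on only 3 Ifitm3 UMIs in the high set and 20 in the low set. Ifitm3 was at 26.3, 1205, 945 and 1031 CPM in the high set of plates 2, 3, 4 and 5, and at 116, 1646, 1532 and 1799 in the low set. Per cell, however, Ifitm3 stood at 2.95, 2.24 and 2.72 UMIs in the high set of plates 3, 4 and 5 and 2.54, 2.42 and 2.64 in the low set, so the 2 sets overlapped. Ifitm2 was at 597, 543, 679 and 603 CPM in the high set and 741, 811, 772 and 691 in the low set. Cells of the high set held a median of 2230.0 UMIs, against 1385 in the low set.

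In plates 3 to 5, Ifitm1 stepped down along the range of cycle transcripts. There, cells with 0 to 2 list UMIs per 1000 had 3500.0 Ifitm1 CPM, and those with 3 to 5 had 3052. Cells with 6 to 9 list UMIs had 2759.8, those with 10 to 14 had 2077, those with 15 to 19 had 1081 and those with 20 to 29 had 1017. The 10 cells with more list UMIs are not shown. Plate 2 had no such steady fall, at 170, 324, 222, 243 and 136 CPM of Ifitm1 over the steps up to 15 to 19 list UMIs, on 3 to 23 Ifitm1 UMIs a step. Over the steps of plates 3 to 5, Ifitm2 ran from 902 at the low end through 662 to 776 at the high end. Ifitm3 ran there from 1659 through 1438 and 1081 to 1155. Both sets are cut from a score and name no cell type, and 92 of the 1025 thinned cells lay within 1 UMI of the lower edge of the high set.

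**Figure D2:**
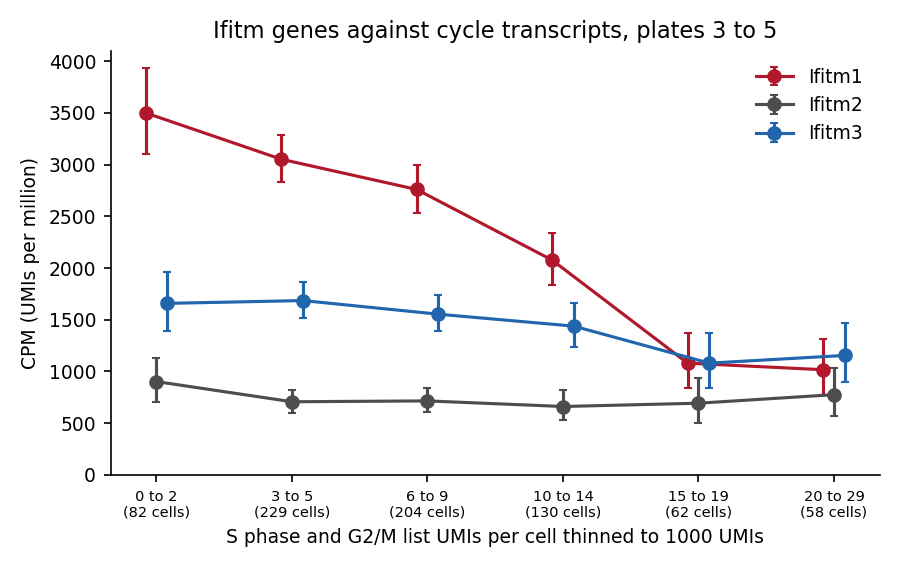
Ifitm CPM in cells of plates 3 to 5 thinned to 1000 UMIs, by the number of S phase and G2/M list UMIs in the cell, with 95% exact Poisson intervals as bars and the number of cells under each step. Ifitm1 drops to 1017 in the cells with 20 to 29 list UMIs, against 3500.0 in those with 0 to 2, and Ifitm2 shows no such slope.

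The index record assigns each cell a whole number from 1 to 10 in a column named map, with no meaning stated. The groups may have been made from these counts, so levels by group are descriptions. Group 1 held 10 cells and is left out. Over plates 3 to 5, Ifitm1 was highest in group 3 (4613 ± 362 CPM, SD, n = 3 plates) and next in group 2 (3784 ± 373). Group 3 was above group 2 in all 3 plates without overlap of their ranges, the only such step between neighbours in the order.

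Groups 6, 4 and 5 followed with 2928 ± 1327, 2851 ± 442 and 2679.9 ± 182 Ifitm1 CPM. Group 7 had 1912 ± 794, group 8 had 1674 ± 236, group 10 had 1271 ± 268 and group 9 had 1110.03 ± 128. S phase and G2/M genes made up on average 0.478% of a cell's UMIs in group 3 and 0.466% in group 2, against 1.04% in group 8, 1.44% in group 9 and 2.00% in group 10. Group 9 cells were also the deepest, with a median of 2340.5 UMIs.

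Ifitm3 had its highest mean in group 3 too (2385 ± 266 CPM) and its lowest in group 9 (1063 ± 153), but each group overlapped its neighbour in the order. Ifitm2 ran from 987 ± 204 in group 7 to 560.0 ± 109 in group 5, again with overlap between all neighbours. The plates filled the groups unequally: plate 2 held 52 of the 86 cells of group 7 and 13 of the 117 cells of group 2. In plate 2 itself, all groups were far below those of the other plates for Ifitm1 and Ifitm3.

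**Figure D3:**
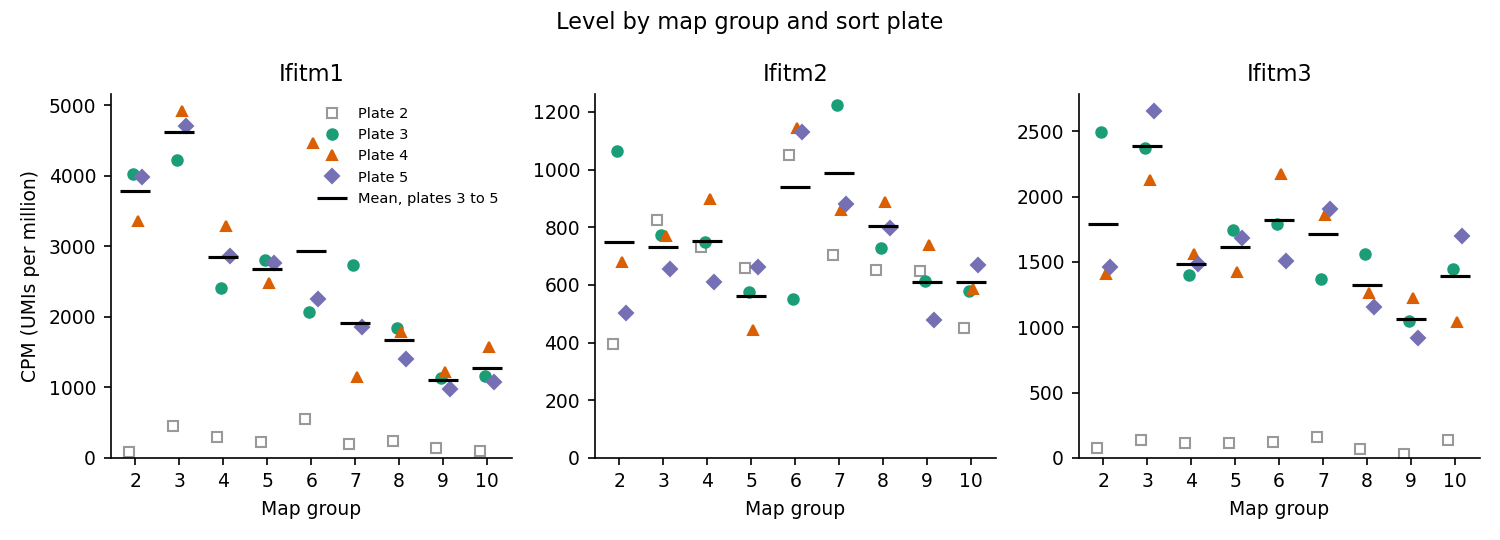
CPM of each gene in map groups 2 to 10, with 1 symbol per sort plate (open squares for plate 2) and a bar at the mean of plates 3 to 5. Ifitm1 stands highest in group 3 (mean 4613) and lowest in group 9 (mean 1110.03), and plate 2 lies near the bottom for Ifitm1 and Ifitm3 in every group.

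The 10 genes whose levels over groups followed Ifitm1 most closely were mainly ribosomal. The share of ribosomal genes among all those compared was not counted. Over 36 libraries of a map group in a plate, centred within plate, Pearson's r with Ifitm1 among 4089 genes was highest for the ribosomal protein genes Rpl26 (0.76) and Rpl37 (0.73), the row 1500012F01Rik (0.71), the granule protease Prtn3 (0.68), and the ribosomal protein genes Rps14 (0.67) and Rpl4 (0.67). Arhgdib came next (0.64), then Rplp0 (0.63), the HSC transcription factor Mecom (0.63) and Rps15 (0.62). Without plate 2, r of these 10 genes ran from 0.58 (Mecom) to 0.80 (Rpl26). Ifitm3 ranked 30 (0.54, and 0.67 without plate 2) and Ifitm2 ranked 91 (0.45, but 0.24 without plate 2). At the other end stood the cell-cycle genes Top2a (-0.76), Tk1 (-0.75), Anp32e (-0.75), Cdca8 (-0.72) and Spc24 (-0.70). These libraries share cells, depth and grouping, so the values describe likeness only.

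CFP brightness was compared next, with the 20% brightest (286 cells) and 20% dimmest cells (286 cells) of each plate. Ifitm1 made up a smaller share of the RNA of CFP-bright HSCs. Its level was 228, 1584, 1709.7 and 1305 CPM in the bright cells of plates 2, 3, 4 and 5, against 261, 2817, 3274 and 3424 in the dim cells. Bright was below dim in each plate, and in plates 3 to 5 the ranges did not overlap. The log2 fold change was -1.01 ± 0.09 (SE; edgeR quasi-likelihood test with plate as a block, Benjamini-Hochberg adjusted p = 4.4e-21), the sixth smallest p of 4653 genes tested. Of these genes, 9.2% passed. Bright cells were also richer in the cycle transcripts on which Ifitm1 was chosen, so its p and rank are no independent support.

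Ifitm2 and Ifitm3 did not pass in bright against dim cells. Ifitm3 was at 59.0, 1525, 1239 and 1213 CPM in bright cells of plates 2, 3, 4 and 5, and at 99.4, 1373, 1559 and 1616 in dim cells, a log2 fold change of -0.24 ± 0.11 (adjusted p = 0.20). Ifitm2 was at 604, 676, 839 and 664 in bright and 684, 681, 655 and 589.8 in dim cells, with a log2 fold change of 0.07 ± 0.13 (adjusted p = 0.82). The 95% interval of the Ifitm2 change ran from -0.19 to 0.34, and that of the Ifitm3 change from -0.46 to -0.02.

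Most of the Ifitm1 step lay between intermediate and bright cells. Bright minus intermediate gave -0.79 ± 0.08 for Ifitm1 (adjusted p = 3.9e-16) and -0.32 ± 0.10 for Ifitm3 (adjusted p = 0.021), where 8.92% of genes passed, while Ifitm2 at -0.04 ± 0.11 did not. Intermediate minus dim gave -0.22 ± 0.08 for Ifitm1, which did not pass (adjusted p = 0.52), and neither did the other 2 genes. In that comparison 0.0215% of genes passed.

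In molecules per cell, the picture of CFP-bright cells was different. Bright cells held 0.437, 3.46, 3.74 and 3.05 Ifitm1 UMIs each in plates 2, 3, 4 and 5, and dim cells held 0.296, 3.48, 3.47 and 3.61. The difference of -0.041 ± 0.361 UMIs (mean and SD over 4 plates) was within the spread between plates, with 2 plates above 0 and 2 below (exact two-sided sign-flip permutation p = 0.88). Bright cells held more molecules in all, with a median of 1871 ± 156 UMIs, against 1091 ± 109 in dim cells (SD, n = 4 plates).

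Ifitm2 and Ifitm3 counts per cell ran higher in bright cells. Ifitm2 was at 1.15, 1.48, 1.83 and 1.55 UMIs per bright cell in plates 2, 3, 4 and 5, and at 0.775, 0.841, 0.694 and 0.622 per dim cell. The difference of 0.772 ± 0.333 had the same sign in all 4 plates, and its exact permutation p of 0.13 is the smallest that 4 plates allow. Ifitm3 was at 0.113, 3.33, 2.71 and 2.84 UMIs per bright cell and 0.113, 1.70, 1.65 and 1.70 per dim cell, a difference of 0.957 ± 0.688 (exact permutation p = 0.25) that was 0 in plate 2.

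**Figure D4:**
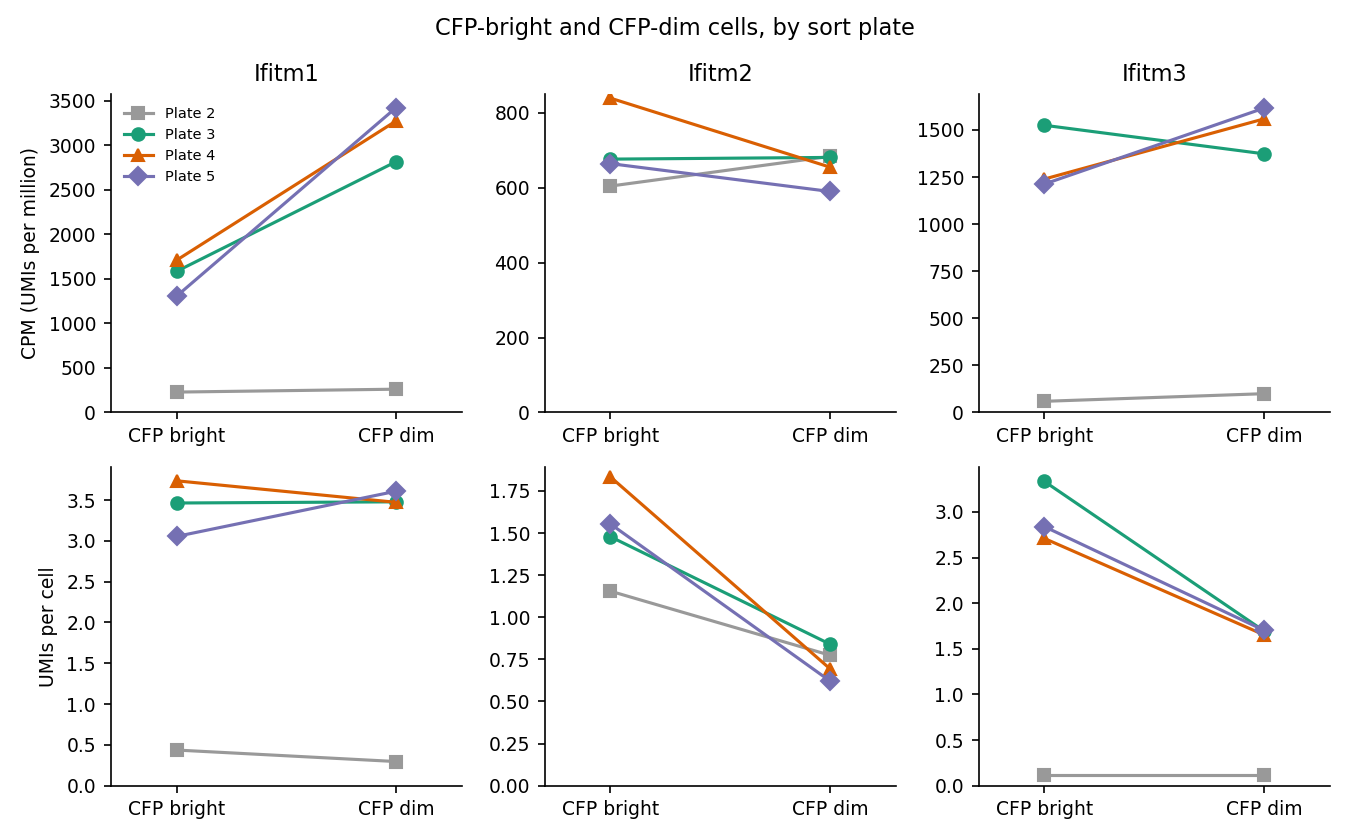
Level of each gene in CFP-bright (left) and CFP-dim (right) cells, as CPM in the upper row and UMIs per cell in the lower row, with 1 line per sort plate. In CPM, Ifitm1 is lower in bright cells in every plate, while per cell it differs by -0.041 on average and Ifitm2 and Ifitm3 lie higher in the bright cells of plates 3 to 5.

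The Ifitm1 call by CFP did not hold once cells rich in cycle transcripts were set aside. S phase and G2/M genes made up 1.31 ± 0.206% of UMIs in bright and 0.534 ± 0.0351% in dim cells. Without the 20% of cells per plate highest in these transcripts, the log2 fold change of Ifitm1 was -0.30 ± 0.12, with an adjusted p of 0.39. The number of genes passing was then 12, against 428 with all cells. The cells were set aside on the transcripts by which Ifitm1 was chosen, so a smaller Ifitm1 change was likely beforehand. Cells that remain still vary in these transcripts, here and in the same check of the dyes below. The part of the cell cycle in the Ifitm1 change was not tested.

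Interferon pathway genes outside the Ifitm family that passed between bright and dim cells were all lower in bright cells, in a comparison where 3.5% of all genes tested passed as lower. Of the receptors and kinases, 0 of 5 tested genes passed. Among the transcription factors, Irf1 (-0.86 ± 0.23) and Stat3 (-0.69 ± 0.19) fell, 2 of 7. Of the induced genes, 3 of 24 fell and 0 rose: the antiviral receptor transporter Rtp4 (-1.21 ± 0.31), the interferon-gamma induced GTPase Igtp (-0.89 ± 0.29) and Ly6e (-0.30 ± 0.09), a surface protein that restricts coronaviruses. The median log2 fold change of the induced genes was -0.22, beside -0.03 over all genes tested. Between bright and intermediate cells Irf7 (-0.94 ± 0.27), Parp14 (-1.02 ± 0.35), Stat3 and Rtp4 fell.

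HSC genes fell in bright cells in 4 of 9 cases, beside the 3.5% of all genes, with Pdzk1ip1 (-0.82 ± 0.14), Hlf (-0.98 ± 0.18), Mllt3 (-0.94 ± 0.24) and Mecom (-1.19 ± 0.31). The summed level of the HSC list was 1405 to 1916 CPM in bright and 2279 to 2718 in dim cells. The part of these shifts in the Ifitm1 result was not tested.

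The 6 dye channels of the sort separated Ifitm1 further. The record names dyes and no antibodies, so a dye cannot be tied here to one of the surface markers of the gate. In each channel the 20% highest and 20% lowest cells of each plate were compared. Ifitm1 passed in 4 of the 6 channels, lower in the high set of 3 and higher in that of 1.

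The steepest Ifitm1 difference was in APC-Alexa Fluor 750. Ifitm1 was at 144, 1258, 1312 and 1114 CPM in the high cells of plates 2, 3, 4 and 5, against 229.7, 2868, 3894 and 3781 in the low cells. The log2 fold change was -1.47 ± 0.12 (adjusted p = 1.0e-20), the third smallest p of 3258 genes, of which 10.2% passed. Here the count per cell was lower as well, at 2.58, 2.49 and 2.46 Ifitm1 UMIs per high cell of plates 3, 4 and 5 and 3.797, 4.99 and 4.53 per low cell, with no overlap. In plate 2 it was 0.254 in both sets.

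Ifitm3 fell with this dye to 71.8, 1392, 1114 and 1139 CPM in the high cells, against 115, 1784, 1671 and 1896 in the low cells (-0.61 ± 0.14, adjusted p = 7.6e-04). Its count per cell overlapped between the sets, at 2.86, 2.11 and 2.51 in the high cells of plates 3, 4 and 5 and 2.36, 2.14 and 2.27 in the low cells. Ifitm2 did not pass (-0.11 ± 0.16, adjusted p = 0.77). The sets differed in cycle transcripts, with a share of 1.23 ± 0.133% in high and 0.5003 ± 0.0534% in low cells. Without the cells richest in these, Ifitm1 still passed at -1.01 and Ifitm3 did not (-0.15 ± 0.16, adjusted p = 0.79).

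Alexa Fluor 700 ran the other way. Ifitm1 was at 191.5, 3235, 3865 and 3626 CPM in the high cells of plates 2, 3, 4 and 5, against 136, 1672, 1709 and 1424 in the low cells. The log2 fold change of 1.16 ± 0.10 (adjusted p = 1.6e-19) had the fourth smallest p of 3168 genes, of which 5.37% passed. Per cell, the high set held 4.81, 5.07 and 4.88 Ifitm1 UMIs in plates 3, 4 and 5 and the low set held 2.93, 2.58 and 2.50. The share of cells' UMIs from S and G2/M genes was 0.588 ± 0.0673% in high and 0.929 ± 0.0853% in low cells.

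Ifitm3 rose with Alexa Fluor 700 as well, to 67.6, 2241, 1927 and 1918 CPM in the high cells, against 68.0, 1233, 1378 and 1216 in the low cells (0.68 ± 0.12, adjusted p = 1.3e-05). The plates other than plate 2 did not overlap. Without the cells highest in cycle transcripts it no longer passed (0.45 ± 0.15, adjusted p = 0.096), while Ifitm1 passed still at 0.86. Ifitm2 was at 879, 789, 847 and 703 in the high and 629, 803, 698 and 600.3 in the low cells, and its change of 0.28 ± 0.14 did not pass (adjusted p = 0.31).

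With PE-Cy7, Ifitm1 fell to 136, 1730.3, 1552 and 1307 CPM in the high cells of plates 2, 3, 4 and 5, against 262, 3071, 3574 and 3459 in the low cells (-1.17 ± 0.11, adjusted p = 2.0e-16). Of 3095 genes, 6.91% passed. The high cells of plates 3, 4 and 5 held 3.20, 2.97 and 2.61 Ifitm1 UMIs each and the low cells 4.33, 4.19 and 4.22. Ifitm3 changed by -0.41 ± 0.14, which passed only without plate 2 (-0.43, adjusted p = 0.0064) or with 33% tails, and not in all plates (adjusted p = 0.057). Ifitm2 did not pass (-0.07 ± 0.16).

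With PE, the Ifitm1 change was smaller, at -0.57 ± 0.10 (adjusted p = 1.4e-06), where 2.26% of 3047 genes passed. Its level was 221, 1878, 2057 and 1685 CPM in the high cells and 145, 2502, 3407 and 2705 in the low cells, so that plate 2 went against the other plates on 23 UMIs in high and 12 in low cells. The call was lost without the cells richest in cycle transcripts (-0.28, adjusted p = 0.50) and under DESeq2 (-0.48, adjusted p = 0.88). Ifitm3 changed by -0.37 ± 0.12 (adjusted p = 0.097; without plate 2, -0.41 with an adjusted p of 0.048), and Ifitm2 by 0.02 ± 0.14.

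PE-Cy5 and APC gave no call for any of the 3 genes, against 0.327% and 0.465% of all genes tested. Ifitm1 changed by -0.24 ± 0.10 with PE-Cy5 (95% interval -0.43 to -0.05, adjusted p = 0.68) and by 0.12 ± 0.11 with APC (-0.09 to 0.34, adjusted p = 0.87). PE-Cy5-high and PE-Cy5-low cells had Ifitm1 levels of 2489 ± 51.5 and 2885 ± 346 CPM over plates 3 to 5.

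**Figure D5:**
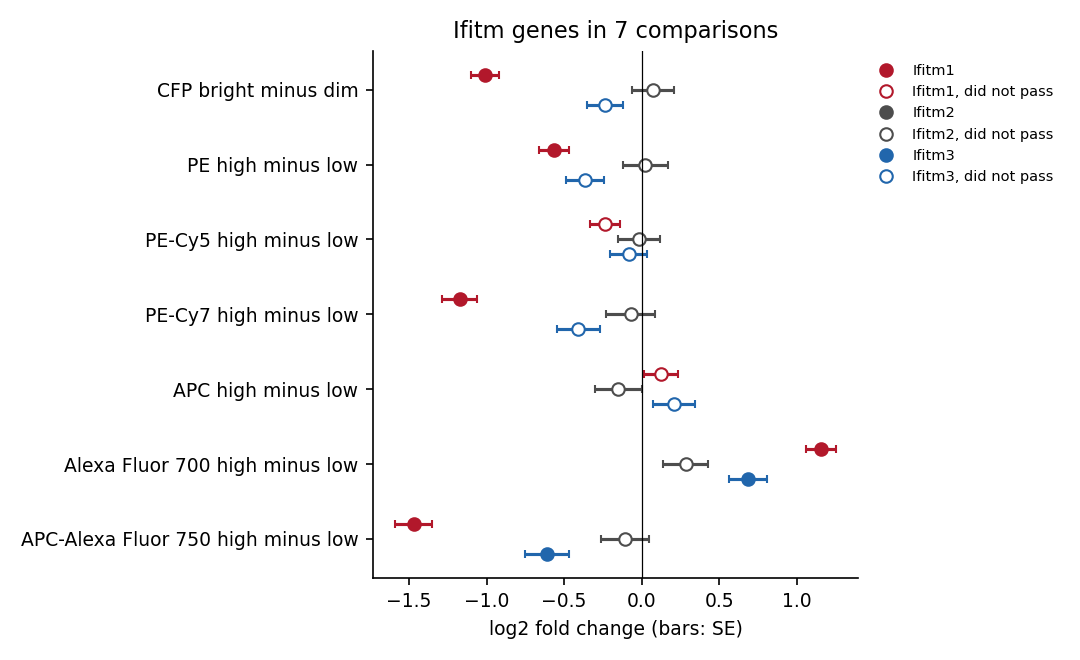
Log2 fold change (points) and SE (bars) of Ifitm1, Ifitm2 and Ifitm3 between CFP-bright and CFP-dim cells and between the high and low cells of 6 dye channels, with filled points for an adjusted p under 0.05. Ifitm1 passes in 5 of the 7 comparisons, Ifitm3 in 2 and Ifitm2 in 0, with Ifitm1 at -1.47 for APC-Alexa Fluor 750 and at 1.16 for Alexa Fluor 700.

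Ifitm1 and its relatives were also set against each other within plates, where depth and composition are shared. For APC-Alexa Fluor 750 the log2 ratio of high over low was lower for Ifitm1 than for Ifitm2 in all 4 plates, by -1.23 ± 0.50 (SD; exact sign-flip permutation p = 0.13, the smallest possible). For PE-Cy7 it was lower for Ifitm1 than for Ifitm3 in all 4 plates, by -0.79 ± 0.11 (exact permutation p = 0.13). For CFP, Ifitm1 minus Ifitm3 was -0.50 ± 0.72 with 3 of 4 plates below 0 (exact permutation p = 0.25). With 4 plates none of these differences could reach 0.05.

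Along single cells, rank correlations of thinned Ifitm1 UMIs with the channels had the signs of the fold changes where Ifitm1 passed. Spearman's coefficient in plates 3, 4 and 5 was -0.30, -0.47 and -0.36 for APC-Alexa Fluor 750 and -0.25, -0.38 and -0.37 for PE-Cy7. It was -0.19, -0.40 and -0.28 for CFP and 0.25, 0.28 and 0.32 for Alexa Fluor 700. It was -0.13, -0.11 and -0.17 for PE, while PE-Cy5 (-0.03, 0.00 and -0.14) and APC (0.10, -0.06 and 0.05) had no common sign. In plate 2 the values for all 7 channels lay between -0.17 and 0.09. DAPI, which marks cells with open membranes in a live sort, gave -0.23, -0.47 and -0.31. Cells of a plate share its depth and batch, and these values are descriptions.

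Some interferon pathway genes went with Alexa Fluor 700 and APC-Alexa Fluor 750. In Alexa Fluor 700-high cells, the interferon-gamma receptor gene Ifngr1 rose (1.31 ± 0.32), as did the transcription factor genes Irf7 (1.07 ± 0.34) and Irf2 (0.61 ± 0.19). Among induced genes Gbp3 (1.94 ± 0.53), the nucleotide hydrolase Samhd1 (0.85 ± 0.23) and Ly6e (0.41 ± 0.10) rose, 3 of 18, with a median of 0.31 beside -0.01 over all genes, of which 2.84% passed as higher. In APC-Alexa Fluor 750-high cells the kinase gene Jak1 (-0.95 ± 0.31), Stat3 (-0.59 ± 0.19), Parp14 (-1.46 ± 0.46) and Samhd1 (-0.77 ± 0.26) fell, and 0 genes of the 3 lists rose, where 4.7% of all genes passed as lower. In PE-Cy7-high cells, 3.23% of all genes passed as lower. Samhd1 was the 1 gene that passed there (-0.76 ± 0.25), with 4, 7 and 16 genes of the 3 lists tested, which is near that share. PE, PE-Cy5 and APC gave 0 calls in the 3 lists, where 2.26%, 0.327% and 0.465% of all genes tested passed. At such shares, 0 calls is no contrast to the other dyes.

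HSC genes passed in the comparisons where Ifitm1 did, and 1 passed with APC. In APC-Alexa Fluor 750-high cells 6 of 7 tested HSC genes fell (4.7% of all genes), with Pdzk1ip1 at -0.97 ± 0.16, Mllt3 at -1.37 ± 0.25, Procr at -1.70 ± 0.35 and Hlf at -0.84 ± 0.18. In Alexa Fluor 700-high cells 5 of 7 rose (2.84% of all genes), among them Procr (1.51 ± 0.34) and Mllt3 (1.04 ± 0.24). With PE-Cy7, 4 of 7 fell (3.23% of all genes), with PE 2 of 7 (0.722%), and with APC 1 of 7 (Mllt3) rose (0.186%). Megakaryocyte genes summed to 327 to 608 CPM in APC-Alexa Fluor 750-high and 197 to 271 in low cells. With PE-Cy7 they summed to 391 to 813 in high and 150.3 to 309 in low cells. With APC, where Ifitm1 gave no call, their mean was also higher, at 365 CPM in high and 208 in low cells. High and low means were 376 and 268 with PE, 322 and 261 with PE-Cy5, and 238 and 383 with Alexa Fluor 700. CFP-bright cells had a mean of 432 and CFP-dim cells 324.

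Globin transcripts also differed between dye sets. The erythroid list summed to 2666 to 5958 CPM in PE-high and 319 to 807 in PE-low cells, and to 2901 to 6901 in PE-Cy5-high and 369 to 1039 in PE-Cy5-low cells. In the PE-Cy5 sets Ifitm1 gave no call beside this gap. The part of megakaryocyte and erythroid transcripts in the Ifitm results was not tested.

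Cell depth moved with Ifitm1 as well. When cells of plates 3 to 5 were ranked by total UMIs within plate, 4 equal sets from shallow to deep had 3565, 3154, 2703 and 1649 Ifitm1 CPM and 2.83, 3.54, 4.12 and 4.30 Ifitm1 UMIs per cell. Ifitm3 had 1783, 1753, 1522 and 1299.7 CPM along these sets, and Ifitm2 had 677, 657, 762 and 692. The share from S phase and G2/M genes was 0.566, 0.569, 0.775 and 1.23% in the same order. In plate 2 the same sets had 284, 125, 289 and 210 CPM of Ifitm1, with no steady fall. Depth and cell cycle cannot be told apart in these ranks.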

How the data were processed

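The authors deposited UMI counts as whole numbers, with 1 row a gene and 1 column a well and no scaling, and an index-sort record. In the deposited record, CFP and the dye channels are log10 scores of whole channel numbers, per the values, scatter is in whole channel numbers, and some dye columns hold text, so all are treated as other values and used as ranks within a plate. Wells without a number were left out (PE 47, PE-Cy5 14, PE-Cy7 77). Per the labels' protocols, barcoded poly(T) primers tagged each well and pooled cDNA was amplified in vitro. Per the submitters' processing notes the series used cutadapt, STAR, featureCounts, DESeq2, Bismark 0.19.0, bcl2fastq 2.15.0.4, mm9 and mm10 with no role given, and how UMIs were counted is not given in the sources. The bulk and bisulphite samples were not analysed here.

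All 1430 recorded wells (511 to 6026 UMIs) passed a minimum of 500 UMIs, and doublets were not called, since a sorter set 1 cell in each well. UMIs were summed per plate and set and tested over all genes with the quasi-likelihood test of edgeR 4.0.16 (R 4.3.3; TMM scaling after filterByExpr, plate block, Benjamini-Hochberg adjusted p under 0.05), after a test on simulated data. On the simulated data, 36.5% of 2-fold changes were recovered for CFP and 48.1% for APC, over tested genes of mixed level. Of 4-fold changes, 86.4% and 90.6% were recovered. Each dye fit left 3 residual degrees of freedom and the CFP fit 6. The prior ones, borrowed over genes, ran from 44.3 for PE-Cy5 to 237.1 for CFP and were infinite for PE. Small p-values thus lean on spread shared over genes. Libraries held 76354 to 173150 UMIs in bright, dim, high and low sets. Bright and dim libraries of the same plate deviated together (Pearson's r over genes 0.54, 0.23, 0.14 and 0.18 in plates 2 to 5), and they come from the same sort, so plate was kept as a block. The design had foreseen batches or plates as replicates, and the record names plates only. Shares have exact Clopper-Pearson and levels exact Poisson intervals (95%), and a count of 0 allows 3 counts. Alternatives were DESeq2 1.42.0, other scaling, filters, tails and sets of cells, no block, and each plate left out. Named genes are the 3 members, all other Ifitm rows, the 10 genes most like Ifitm1 over groups (log2 of CPM plus 10; genes of at least 50 CPM; libraries of at least 5 cells), interferon-list genes that passed (1 is not reported here), and up to 4 HSC genes. The genes, lists and comparisons were chosen with earlier results of these data known. Plate 2's lowest genes were named after their values were seen.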

Additional observations from a re-analysis of the deposited data

Results flagged for a closer look

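Ifitm1 in sort plate 2, at 223 CPM, stood apart from the 3 other plates: its gap to the nearest of them was 0.916 of the range over the 4 plates, above Dixon's 95% critical value of 0.83. Ifitm3 in the same plate, at 93.0 CPM, stood apart likewise, with a gap of 0.907 of the range. Such values were looked at in 27 groups of 4 plates, and chance alone would mark about 1 in 20 of them. That Ifitm1 differs between plates was known when the genes were chosen, so its flag is a description and no test. The source of the plate 2 values was not tested.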

How the results depend on the processing

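Across the 11 alternatives tried for each comparison, Ifitm1 kept its direction in all 7 comparisons and kept its side of the threshold in all but those given here. Without the replicate block (plate left out of the design), no Ifitm gene passed: Ifitm1 was at -1.04 for CFP (adjusted p = 0.53), -0.59 for PE, -1.18 for PE-Cy7, 1.19 for Alexa Fluor 700 and -1.54 for APC-Alexa Fluor 750, and Ifitm3 at 0.71 for Alexa Fluor 700 and -0.60 for APC-Alexa Fluor 750. Genes passing then numbered 125 for CFP, 20 for PE-Cy7, 7 for PE, 3 for PE-Cy5, 0 for APC, 14 for Alexa Fluor 700 and 90 for APC-Alexa Fluor 750. Without the cells richest in cycle transcripts, Ifitm1 was weaker at -0.30 for CFP and -0.28 for PE, and Ifitm3 at 0.45 for Alexa Fluor 700 and -0.15 for APC-Alexa Fluor 750. Genes passing then numbered 12 for CFP, 17 for PE-Cy7, 9 for PE, 4 for PE-Cy5, 29 for Alexa Fluor 700 and 38 for APC-Alexa Fluor 750, with fewer cells in each set.

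DESeq2 left Ifitm1 at -0.48 for PE without a call, and called 211 genes for CFP, 44 for PE-Cy7, 10 for PE, 3 for PE-Cy5, 1 for APC, 35 for Alexa Fluor 700 and 98 for APC-Alexa Fluor 750. With cells of at least 1000 UMIs the counts were 258 for CFP, 45 for PE, 126 for PE-Cy7 and 195 for APC-Alexa Fluor 750, and with no filter on low counts 25 genes passed for APC. Ifitm3 gained a call for PE-Cy7 with 33% tails (-0.46). Leaving out 1 plate in turn changed no call of Ifitm1 or Ifitm2. It moved genes passing to between 260 and 366 for CFP, 26 and 58 for PE, 3 and 20 for PE-Cy5, 87 and 180 for PE-Cy7, 0 and 22 for APC, 72 and 123 for Alexa Fluor 700 and 146 and 261 for APC-Alexa Fluor 750. Over these fits Ifitm3 ran from -0.45 to -0.29 for PE and from -0.49 to -0.33 for PE-Cy7, and passed without plate 2 (-0.41 and -0.43). It ran from -0.71 to -0.54 for APC-Alexa Fluor 750, where it no longer passed without plate 5 (-0.54, adjusted p = 0.055). The cause of these changes was not tested.

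The difference in Ifitm1 UMIs per cell between bright and dim cells was -0.041, ran from -0.143 to 0.130 when 1 plate was left out, and was 0.624 without the cells richest in cycle transcripts and -1.15 in thinned cells, where the count is a share. With 4 plates and about 1 to 4 molecules of an Ifitm gene per cell, small differences between sets cannot be seen at this depth, and nothing here describes the spread between mice.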
